A study of Mus musculus with 6 samples.

Results

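The Oas genes encode the 2'-5'-oligoadenylate synthetase family, and 8 of its mouse members were read here: Oas1a, Oas1b, Oas1c, Oas1g, Oas2, Oas3, Oasl1 and Oasl2. They were taken by gene symbol from a table of 78298 genes measured by RNA sequencing in all 6 samples of the study. The 4 other Oas1 genes of the mouse (Oas1d, Oas1e, Oas1f and Oas1h) are described beside them.

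OAS proteins bind double-stranded RNA, as formed by many viruses, and then join ATP into short chains linked 2' to 5', called 2-5A. 2-5A is a short-lived messenger of antiviral defense, and phosphodiesterases break it down. Transcription of the Oas genes is a classic part of the response to type I interferon, which signals through the receptor chains Ifnar1 and Ifnar2 to transcription factors that include Stat2 and Irf9. Not every member makes 2-5A. The deposited annotation names Oas1b and Oas1c as inactive, and Oasl1 and Oasl2 carry ubiquitin-like domains behind the OAS fold. The same annotation gave double-stranded RNA binding and defense response to virus to 8 of the 8 genes, and synthetase activity to 5 of them (Oas1a, Oas1g, Oas2, Oas3 and Oasl2).

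RENCA, an established mouse renal adenocarcinoma line, was transduced with a lentivirus that carried the mouse Aqp1 coding sequence behind the ubiquitin C promoter (oe-AQP1, n = 3) or with the matching empty vector (oe-NC, n = 3). Either group went through 14 days of puromycin selection (2 μg/mL), and the sample titles give 2 weeks. Both groups therefore carry a lentiviral backbone and the resistance cassette. Whether the 3 samples of a group came from separate transductions is not stated, so the p-values measure the spread between these samples only, which may be technical. The deposited values are expected counts, estimated read numbers that need not be whole, and their total per sample was 19758518, 21920899 and 20468701 for oe-AQP1 and 19788720, 18385714 and 21396274 for oe-NC (samples 1, 2 and 3). The study's methods set interferon-stimulated genes aside as possible artifacts of gene transfer. They were kept here, and the part of gene transfer in the values was not tested. Aqp1 itself had 7713, 8545 and 7838 counts in oe-AQP1 and 41, 25 and 45 in oe-NC (log2FC = 7.70, SE 0.16).

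Sample 1 of oe-NC stood apart from its group. A chi-square comparison of counts gave 9.47 and 11.1 per gene between it and oe-NC samples 2 and 3, against 2.00 between samples 2 and 3 and 1.71 to 2.04 among the oe-AQP1 samples, where sampling noise alone gives about 1. The changes of the OAS genes are therefore given with and without it. In a bulk sample, more RNA per cell and more cells that express a gene cannot be told apart.

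The 8 genes lie on mouse chromosome 5 in 2 clusters. On GRCm39, Oasl2 (chr5:115034997-115050295) and Oasl1 (chr5:115061294-115075974) sit side by side on the plus strand. The other cluster runs from Oas2 (chr5:120868398-120887933, minus strand) through Oas3 (chr5:120891163-120915729, minus), Oas1c (chr5:120938259-120950579, minus), Oas1b (chr5:120950700-120962228, plus) and Oas1g (chr5:121014205-121025676, minus) to Oas1a (chr5:121031070-121046449, minus). Oas1c and Oas1b are head to head, with their starts at 120950579 and 120950703 of the same chromosome.

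The RefSeq promoter table (GRCm38.p6, 250 bases before to 50 after each start) holds 6 of the 8 genes; Oas1b and Oas2 have no entry. Each of the 6 matched GRCm39 chromosome 5 exactly and at 1 place. They were searched on both strands for GAAANNGAAA, the core of the interferon-stimulated response element to which factors of the interferon response such as Irf9 bind. 4 of the 6 promoters held it, against 3.44% of the 32851 promoters in the table. They are shown because 4 members have this pattern in common, 5' to 3' with the matching letters in capitals, 2 overlapping matches in the first 3 and 1 in the last.
Oas1a (chr5:121045586-121045615, minus strand): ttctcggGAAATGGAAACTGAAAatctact
Oas1g (chr5:121025672-121025701, minus strand): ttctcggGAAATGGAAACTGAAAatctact
Oas1c (chr5:120950671-120950700, plus strand): ttcccggGAAATGGAAACTGAAAgtcccat
Oas3 (chr5:120915780-120915809, minus strand): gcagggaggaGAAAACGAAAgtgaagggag

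The same 16 bases stand in capitals in 3 of these promoters. They lie 20 to 5 bases before the RefSeq start of Oas1a, where GENCODE begins its main transcript slightly earlier (121045610) and so counts them to its first exon, and 18 to 3 bases before that of Oas1g. In the Oas1c promoter they lie on the strand opposite to Oas1c, 114 to 99 bases before its start, which is 25 to 10 bases before the start of Oas1b and on the strand of Oas1b. The match of Oas3 lies 75 to 66 bases before its start. The promoters of Oasl1 and Oasl2 did not hold these letters, which says only that this spelling is not in this window. The core of the gamma-activated site (TTCNNNGAA, which reads the same on both strands as a pattern) was found in the Oas1a promoter alone among the 6, and in 8.3% of all promoters. A match of letters is no proof of a bound site.

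A second sequence matters for what the Oas1b counts stand for. Oas1b is known as the gene of flavivirus resistance in wild mice, and many laboratory strains carry a shortened form. In the reference genome, which is that of the strain C57BL/6J and not of RENCA cells, the reading frame of its main transcript meets a stop at codon 253, where the other 7 genes had no in-frame stop before the last codon. The frame has 376 codons before its final stop, and GENCODE types the gene as a loss-of-function coding gene. The coding stretch around this stop is shown with the stop codon in capitals.
Oas1b (chr5:120959361-120959387, plus strand): gcccagggcttcTGAaccgtcttggaa

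Which form RENCA cells carry was not read here, since the files hold counts per gene. Oas1a and Oas1g are near copies. Their coding sequences have the same length and were identical at 1068 of 1104 bases (96.7%), and 56.1% of all 50-base windows of the main Oas1a transcript also occur in that of Oas1g. Between Oas1a and Oas1b the identity of aligned coding bases was 79.9%, and between Oas1a and Oas1c 76.3%. The expected counts of Oas1a and Oas1g were not whole numbers in 6 of 6 samples, as happens where reads are divided among genes, while those of Oasl1 and Oasl2 were whole in every sample. The split of reads between Oas1a and Oas1g is therefore uncertain, and their sum is given too. Counts were also not whole for Oas1c in 4 samples, for Oas2 in 3, for Oas1b in 2 and for Oas3 in 1.

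All 8 OAS genes rose in oe-AQP1 cells. Groups were compared by limma-voom over the 15522 genes that passed the low-count filter, with a Benjamini-Hochberg adjusted p (FDR) under 0.05 and an absolute log2 fold change (log2FC) above 1 required for a call. Among all genes tested, 681 (4.39%) were called higher and 131 (0.844%) were called lower, so 8 of 8 stands beside a background of 4.39%. The members and the lists below were chosen with earlier results of these data known. Such counts therefore describe the chosen genes and are no independent evidence. Oas1d and Oas1e, the other Oas genes tested, were not called. The median log2FC was 1.83 over the 8 genes and 0.00 over all genes tested. All 8 passed the filter, with at least 675 counts in every sample of either group. In each of the 8, every oe-AQP1 sample lay above every oe-NC sample, which was so for 23.5% of all genes tested. Each gene's exact two-sided permutation test gave p = 0.1, the smallest value that 3 samples against 3 allow.

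**Figure D1:**
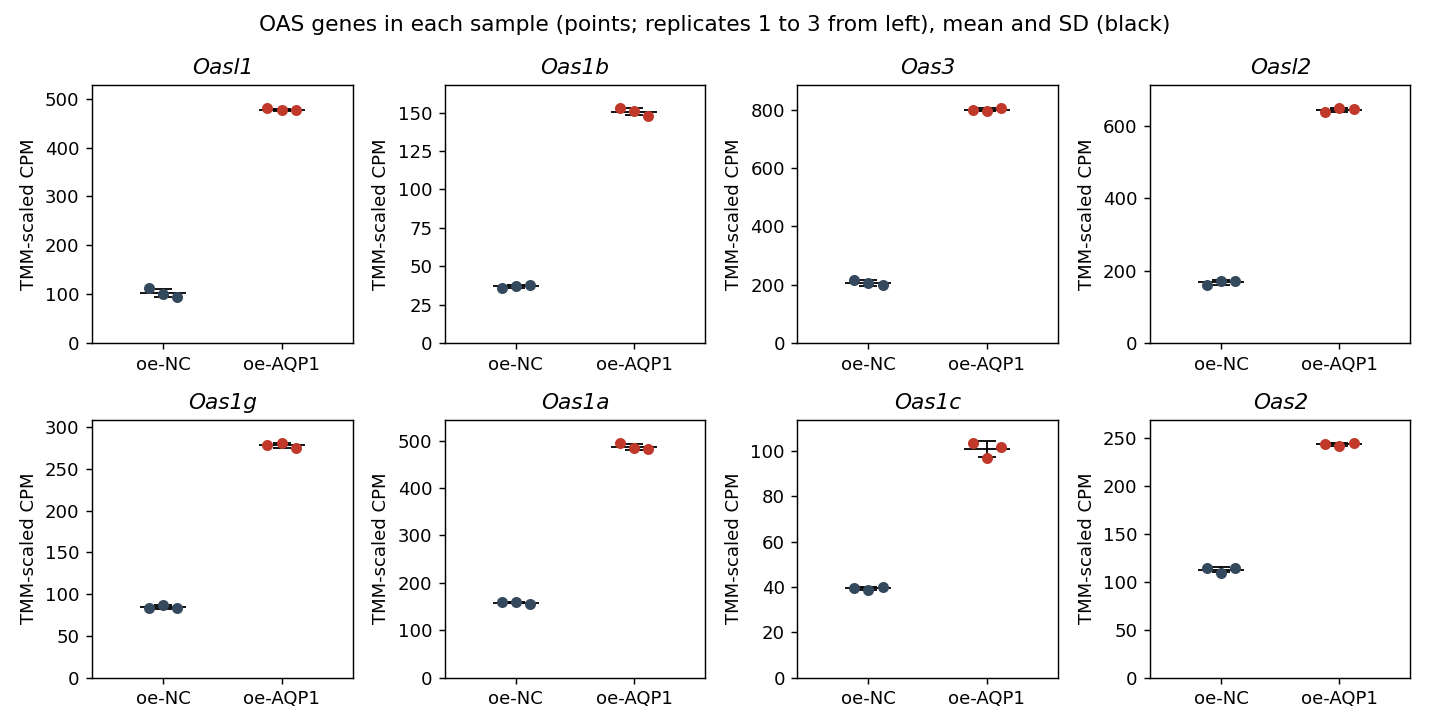
Expression of the 8 OAS genes in each sample, as CPM scaled by TMM factors (vertical axes from 0), with points for the samples and black marks for mean and SD (n = 3 per group). In every panel the 3 oe-AQP1 points lie above the 3 oe-NC points, from Oasl1 with the largest log2FC (2.23) to Oas2 with the smallest (1.11).

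Together the 8 genes took 0.318% to 0.319% of all counts in the oe-AQP1 samples and 0.089% to 0.091% in the oe-NC samples. In CPM, counts brought to a common library size with TMM factors, their sum was 3180 ± 9.11 in oe-AQP1 and 909 ± 12.5 in oe-NC (SD, n = 3), a 3.5-fold difference of the means. The 3 oe-AQP1 sums lay within 3173 to 3191 CPM, so the samples of that group hardly differed among themselves.

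Oas1a and Oas1g encode the small synthetases with a single OAS unit. Oas1a reached 495, 484 and 483 CPM in oe-AQP1 samples 1 to 3 and 160, 159 and 156 CPM in oe-NC samples 1 to 3 (log2FC = 1.62, SE 0.03, FDR = 1.51e-10). The near copy Oas1g reached 279, 281 and 275 CPM against 83.5, 87.4 and 83.9 CPM (log2FC = 1.71, SE 0.04, FDR = 2.51e-10). The groups were far apart for either gene. Summed, Oas1a and Oas1g had 765 ± 7.63 CPM in oe-AQP1 and 243 ± 3.22 CPM in oe-NC, a 3.14-fold difference that does not depend on how reads were split between them. The ratio of Oas1a to Oas1g lay between 1.72 and 1.78 for oe-AQP1 and between 1.82 and 1.91 for oe-NC.

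Oas2 and Oas3 encode larger synthetases in which OAS units follow each other in 1 chain, and Oas3 is known to make 2-5A on long double-stranded RNA. Oas3 took the most reads of the 8 genes, with CPM of 799, 795 and 804 in oe-AQP1 and 217, 204 and 198 in oe-NC (log2FC = 1.95, SE 0.04, FDR = 1.06e-10). Oas2 had 244, 241 and 245 CPM in oe-AQP1 and 114, 110 and 115 CPM in oe-NC (log2FC = 1.11, SE 0.04, FDR = 5.89e-09). Oas2 thus rose least of the 8 and lay just above the fold threshold. Tested against a log2FC of 1 as a bound rather than against 0, Oas2 did not pass (limma treat, adjusted p = 0.276), while the other 7 did. Gm43068, a gene model on the opposite strand inside Oas2, had 7, 12 and 17 counts against 8, 8 and 11, too few to weigh in the Oas2 counts.

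Oas1b and Oas1c are the members annotated as inactive. Oas1b, the flavivirus resistance gene, had 153, 151 and 148 CPM in oe-AQP1 and 35.9, 36.9 and 38.0 CPM in oe-NC (log2FC = 2.03, SE 0.04, FDR = 2.51e-10). Oas1c had 103, 96.8 and 102 CPM in oe-AQP1 and 39.6, 38.5 and 40.0 CPM in oe-NC (log2FC = 1.35, SE 0.05, FDR = 1.04e-08). These head-to-head genes share the window printed above, and the groups did not overlap for either. Per kilobase of transcript Oas1b lay above Oas1c in both groups, with 20.1 against 17.2 CPM in oe-NC and 82.0 against 44.0 CPM in oe-AQP1.

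Oasl1 and Oasl2 encode the OAS-like proteins. Oasl1 is known to hold back translation of Irf7 mRNA, and mouse Oasl2 is known to keep synthetase activity. Oasl1 had 480, 477 and 476 CPM in oe-AQP1 and 111, 101 and 93.8 CPM in oe-NC, and its log2FC of 2.23 (SE 0.05, FDR = 4.61e-10) was the largest of the 8. Oasl2 had 638, 648 and 646 CPM in oe-AQP1 and 160, 170 and 172 CPM in oe-NC (log2FC = 1.94, SE 0.04, FDR = 8.53e-11). Among the control samples, sample 1 was highest for Oasl1, Oas3 and Oas1a and lowest for Oasl2, Oas1b and Oas1g. In no gene did a control sample come near the oe-AQP1 samples.

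Without oe-NC sample 1, the log2FC was 2.30 for Oasl1, 2.01 for Oas1b, 1.99 for Oas3, 1.91 for Oasl2, 1.70 for Oas1g, 1.63 for Oas1a, 1.36 for Oas1c and 1.12 for Oas2, and all 8 stayed called. The order of the genes by log2FC was thus the same without it. Oasl2 stood above Oas3 without oe-NC sample 2 (1.95 against 1.94) and without oe-NC sample 3 (1.96 against 1.92). The largest shift from leaving out any 1 sample was in Oasl1, whose log2FC ran from 2.17 to 2.30.

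How far the 8 genes differed in their change was read from the log2 ratio of neighbours in the order of log2FC, sample by sample. The pairs were taken from that order, which fixes the direction of each difference, so the values describe the size of the steps and are no separate evidence of the order. For 5 of the 7 neighbouring pairs the ratios of the groups did not overlap (exact permutation p = 0.1 each, adjusted p = 0.14 over the 7 pairs, the smallest p the design allows). The difference in log2 ratio was 0.20 (SE 0.10) for Oasl1 over Oas1b, 0.23 (SE 0.03) for Oasl2 over Oas1g, 0.09 (SE 0.02) for Oas1g over Oas1a, 0.27 (SE 0.03) for Oas1a over Oas1c and 0.24 (SE 0.02) for Oas1c over Oas2. For Oas1b over Oas3 (0.07, SE 0.06) and Oas3 over Oasl2 (0.01, SE 0.07) the groups overlapped. Pairs that are not neighbours were not compared. By role, the log2FC ran from 1.11 to 1.95 over Oas1a, Oas1g, Oas2 and Oas3, from 1.35 to 2.03 over the members named inactive, and from 1.94 to 2.23 over the OAS-like genes, and the difference between roles was not tested.

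Because the genes rose unequally, the make-up of the family's reads shifted. Oas2 went from 12.4% ± 0.341 of the 8 genes' CPM in oe-NC to 7.65% ± 0.0475 in oe-AQP1 (SD, n = 3). Oasl1 went from 11.2% ± 0.824 to 15.0% ± 0.0391, and Oas3, the largest share in either group, from 22.7% ± 0.76 to 25.1% ± 0.142. Oas1a went from 17.4% ± 0.128 to 15.3% ± 0.167. The shares of the groups did not overlap for any of the 8 genes (exact permutation p = 0.1 each), though shares of 1 sum are not independent of each other.

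**Figure D2:**
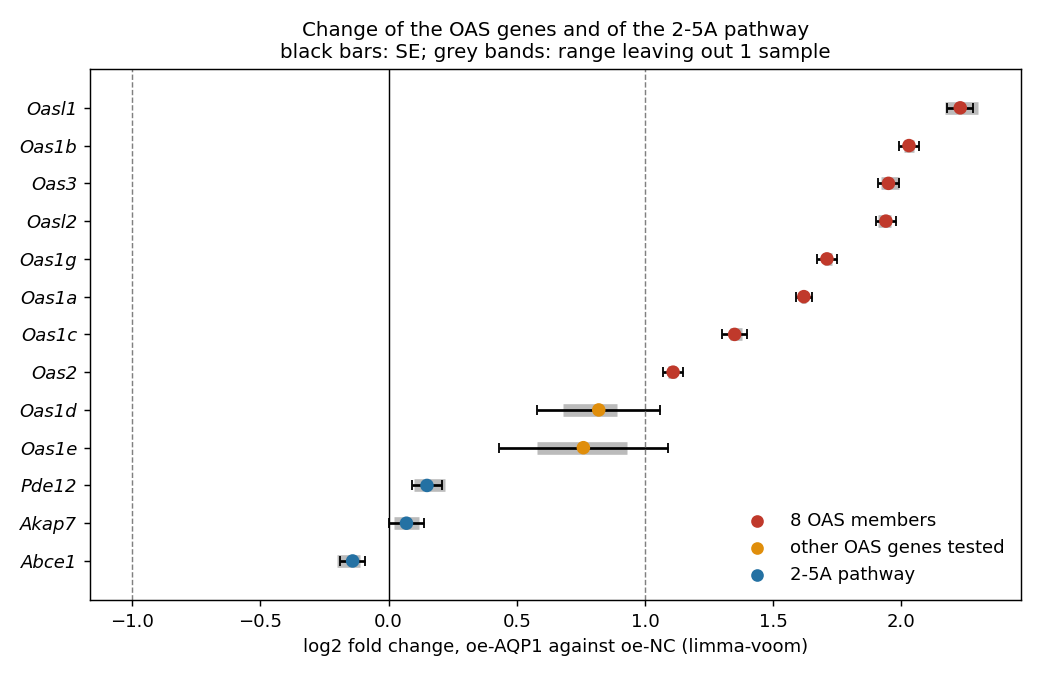
Change between groups (horizontal axis, log2 fold change by limma-voom, positive where oe-AQP1 is higher) for the 8 OAS genes, the other OAS genes tested and the 2-5A pathway, with SE as black bars, the range over fits that leave out 1 sample as grey bands, and dashed lines at -1 and 1. The 8 members lie between 1.11 and 2.23, and Abce1, Pde12 and Akap7 between -0.14 and 0.15.

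Levels were compared between genes only per length, as CPM per kilobase of the Ensembl canonical transcript. In oe-AQP1 cells Oas1a was highest with 255 ± 3.47, followed by Oasl1 with 216 ± 1.02, Oasl2 with 206 ± 1.69, Oas3 with 169 ± 0.96 and Oas1g with 141 ± 1.49 (SD, n = 3). Oas1b with 82.0 ± 1.32, Oas2 with 62.6 ± 0.459 and Oas1c with 44.0 ± 1.52 came last, and no 2 neighbours in this order overlapped between samples. In oe-NC cells the order was Oas1a with 82.9 ± 0.907, Oasl2 with 53.7 ± 2.06, Oasl1 with 46.2 ± 4.03, Oas3 with 43.7 ± 2.07, Oas1g with 43.0 ± 1.09, Oas2 with 29.0 ± 0.708, Oas1b with 20.1 ± 0.554 and Oas1c with 17.2 ± 0.342. There Oasl1, Oas3 and Oas1g overlapped with their neighbours and could not be ranked.

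Oas1a thus led and Oas1c closed the order in either group, while Oasl1 passed Oasl2 and Oas1b passed Oas2 in oe-AQP1 cells. The order depends on which length is used. With the summed length of all annotated exons, which for Oas1a (7989 bases against 1911 in the canonical transcript) includes retained introns, Oasl1 came first and Oas1a sixth in either group, and Oas1c stayed last.

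**Figure D3:**
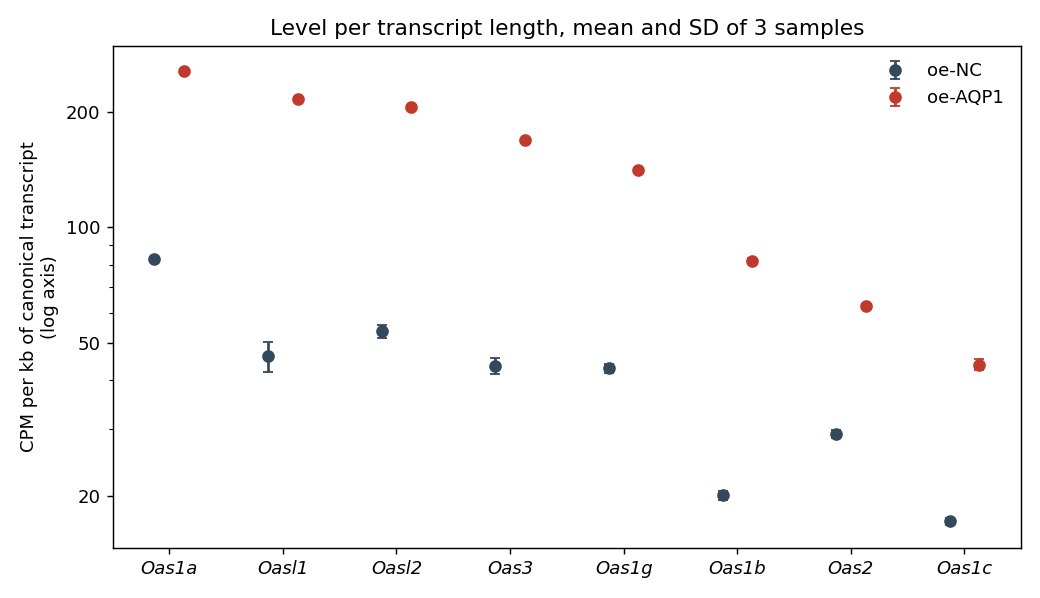
Level of each OAS gene as CPM per kilobase of canonical transcript (vertical log axis), mean and SD of 3 samples per group. Oas1a is highest in either group, with 255 in oe-AQP1 and 82.9 in oe-NC, and Oas1c is lowest, with 44.0 and 17.2.

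Of the genes that act downstream in the 2-5A pathway 3 were listed, and none of these 3 was called by limma-voom, edgeR or DESeq2, which for 3 genes is near the background of 4.39% higher and 0.844% lower. Abce1, known above all as a ribosome recycling factor, had 344 ± 3.36 CPM against 380 ± 26.2 CPM and passed the FDR alone in the lower direction (log2FC = -0.14, SE 0.05, FDR = 0.0445). Pde12, a phosphodiesterase that degrades 2-5A, had 83.5 ± 1.55 CPM against 75.4 ± 6.53 CPM (log2FC = 0.15, SE 0.06, FDR = 0.0807). Pde12 overlaps other genes such as Arf4, with 1649 shared exon bases summed over them. Its expected counts were not whole in 6 of 6 samples, so its value may depend on how shared reads were divided. Akap7, whose protein holds a 2-5A phosphodiesterase fold, had 22.6 ± 0.768 CPM against 21.5 ± 1.47 CPM (log2FC = 0.07, SE 0.07, FDR = 0.499). The unadjusted limma-voom p was under 0.05 for 2 of the 3 (Abce1 and Pde12). With the FDR alone 0 of the 3 were higher and 1 was lower, where 16.0% of all genes tested were higher and 16.6% lower.

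The other Oas1 genes of the cluster had few reads. Oas1d, annotated as inactive, had 25, 37 and 27 counts in oe-AQP1 and 15, 14 and 18 in oe-NC, which passed the FDR but not the fold threshold (log2FC = 0.82, SE 0.24, FDR = 0.0253). Oas1e had 11, 12 and 13 counts against 5, 6 and 9 and did not pass (log2FC = 0.76, SE 0.33, FDR = 0.105). Oas1h had 7, 13 and 15 counts against 4, 3 and 6 and was left out by the low-count filter, as was Oas1f with 1 count in 1 oe-AQP1 sample and 0 in the other 5. Without oe-AQP1 sample 1, Oas1h entered the test and was called higher. It then passed the filter through the oe-AQP1 group only, so this call says nothing beyond its counts. Nearly all reads of the family thus came from the 8 members, with 3180 ± 9.11 CPM against 2.17 to 2.82 CPM for these 4 genes summed in the oe-AQP1 samples.

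The OAS proteins are 1 branch of the sensing of double-stranded RNA, and 7 of the 9 other sensors and adaptors listed were called higher against a background of 4.39%, with a median log2FC of 1.41. Zbp1, a sensor of Z-form nucleic acid, changed most, with 529 ± 7.02 CPM against 52.9 ± 2.36 CPM (log2FC = 3.32, SE 0.04, FDR = 6.77e-12). Tlr3, the endosomal receptor for double-stranded RNA, followed (log2FC = 2.48, SE 0.07). Eif2ak2, the kinase PKR that stops translation, had 404 ± 3.55 CPM against 176 ± 6.43 CPM (log2FC = 1.20, SE 0.04). Adar, which edits double-stranded RNA, had the smallest called change (log2FC = 1.03, SE 0.05) and fell below the fold threshold without oe-NC sample 3 (0.99). The adaptor Mavs was not called, with 189 ± 1.12 CPM against 181 ± 8.13 CPM (log2FC = 0.06, SE 0.04, FDR = 0.283). Of the DNA-sensing pair listed for comparison, Sting1 passed the FDR alone (log2FC = 0.21, SE 0.06, FDR = 0.016), and Cgas, with 10, 10 and 9.84 counts against 2, 0 and 1.77, was left out by the filter.

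The path from interferon receptor to Oas transcription was listed with 17 genes, of which 4 were called higher (background 4.39%) and 0 lower (background 0.844%), with a median log2FC of 0.27. The genes called were transcription factors. Irf5 had 141, 180 and 172 counts against 8, 7.21 and 7 (log2FC = 4.32, SE 0.27). It passed the low-count filter through the oe-AQP1 group only, and 3 genes of the list were called where each sample had to reach 10 counts. Irf7, the most abundant gene of the list, had 1920 ± 23.0 CPM against 491 ± 16.5 CPM (log2FC = 1.97, SE 0.03, FDR = 3.45e-11). Stat2 had a log2FC of 1.97 (SE 0.04) and Irf1 of 1.43 (SE 0.06). These factors include known binders of the GAAANNGAAA pattern. Their binding to the promoters printed above was not measured, and their part in the OAS change was not tested. Irf9, named here after its value was seen as the partner of Stat2, passed the FDR but not the fold threshold, with 149 ± 1.25 CPM against 93.1 ± 1.80 CPM (log2FC = 0.68, SE 0.04, FDR = 4.31e-07).

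Of the 6 receptor genes in the list 0 were called, which is again near the background of 4.39% higher and 0.844% lower. Ifngr1, the uncalled gene of the list with the highest mean CPM, had 144 ± 7.13 CPM against 166 ± 3.17 CPM (log2FC = -0.21, SE 0.04, FDR = 0.00561). The receptor chains of type I interferon, also named after their values were seen, had a log2FC of -0.08 (Ifnar1, SE 0.05, FDR = 0.24) and 0.27 (Ifnar2, SE 0.04, FDR = 0.00134), short of the fold threshold. Named likewise, Ifnlr1 (log2FC = 0.38, SE 0.09, FDR = 0.00714) and Ifngr2 (log2FC = 0.37, SE 0.06, FDR = 0.00125) passed the FDR alone, and Il10rb did not (log2FC = -0.14, FDR = 0.193). By the FDR alone, 9 of the 17 genes of the list were higher (background 16.0%) and 2 lower (background 16.6%).

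Of 20 interferon genes listed, 12 had 0 counts in all 6 samples and 2 passed the low-count filter. Ifnb1, which encodes interferon beta, had 264, 288 and 277 counts in oe-AQP1 and 3, 6 and 5 in oe-NC (log2FC = 5.72, SE 0.30, FDR = 2.6e-07). Ifna4, a gene of interferon alpha, had 34, 23 and 23 counts against 0, 0 and 0, and was at least 25.6-fold higher when set against 3 counts over the control group. Either gene passed the filter through the oe-AQP1 group only, so that the count of 2 called among 2 tested says nothing beyond these values. Ifna2 had 7, 5 and 6 counts against 0, 0 and 2 and was not tested. A count of 0 allows up to 0.137 to 0.163 CPM in these libraries, 3 counts of the library, and intervals of this kind cover counting error only.

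The list of other interferon-induced proteins that bind RNA held members with changes beyond those of the OAS genes. In it 10 of 12 genes were called higher (background 4.39%) and all 12 passed the FDR in that direction (background 16.0%), with a median log2FC of 2.31. The largest changes were in Ifit3b (log2FC = 5.18, SE 0.08) and its near copy Ifit3 (log2FC = 4.85, SE 0.05), whose expected counts were not whole numbers. The smallest called were in Isg20, an exonuclease (log2FC = 1.57, SE 0.05), and in Mov10, an RNA helicase (log2FC = 1.61, SE 0.07). Trim25, the uncalled gene with the highest mean CPM, had 353 ± 0.622 CPM against 192 ± 2.93 CPM (log2FC = 0.88, SE 0.03). The difference in log2FC between this list and the OAS genes was not tested.

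**Figure D4:**
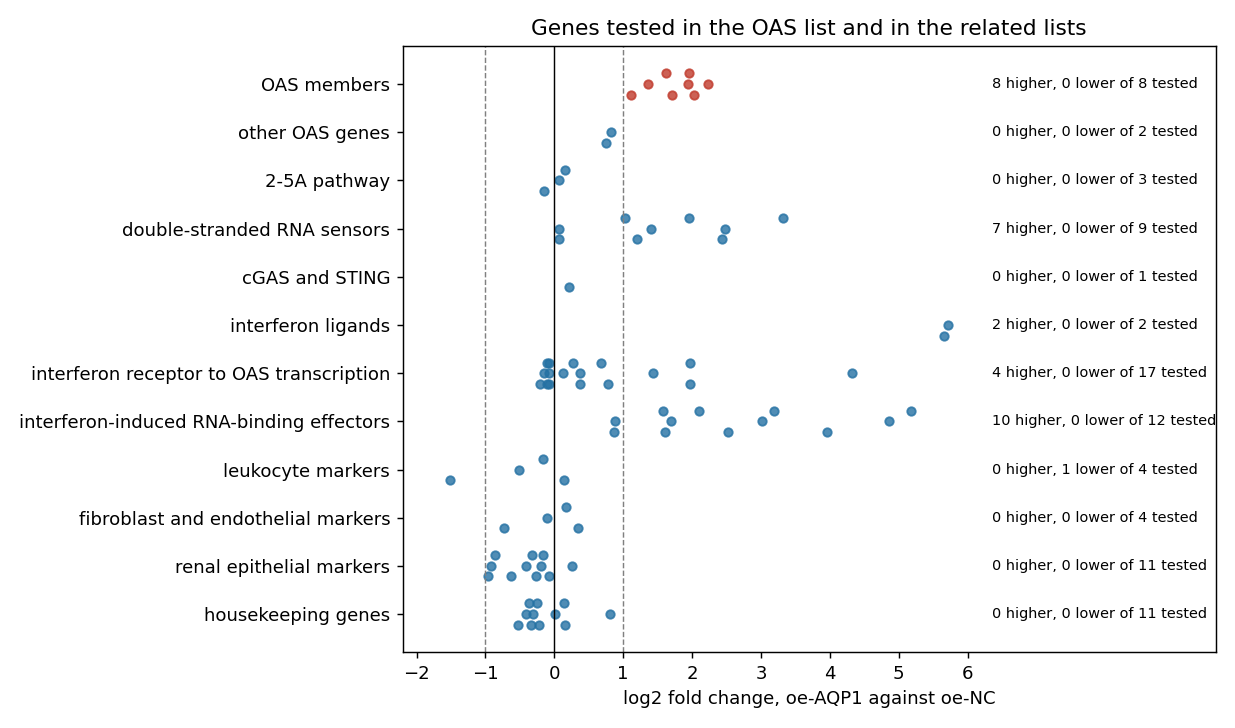
Change between groups (horizontal axis, log2 fold change, positive where oe-AQP1 is higher) for every tested gene of the OAS list (red) and of 11 related lists (blue), with dashed lines at -1 and 1 and the number called beside each list. The 8 OAS genes lie between 1.11 and 2.23, and no gene of the renal epithelial, fibroblast and endothelial or housekeeping lists is called by limma-voom on all samples.

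Markers of other cells were checked, since leukocytes express OAS genes strongly. Of 14 leukocyte markers 4 passed the filter, 0 were called higher (background 4.39%) and 1 lower (background 0.844%), and with 4 genes tested a count of 0 is near that background. Ptprc, which encodes the pan-leukocyte protein CD45, had 3, 1 and 0 counts in oe-AQP1 and 0, 1 and 1 in oe-NC, and Adgre1 and Siglech had 0 in all 6 samples. The list summed to between 59.2 and 62.4 CPM for oe-AQP1 and between 69.6 and 71.3 CPM for oe-NC, of which Cd68, its most abundant gene, made up 33.8 ± 1.48 and 30.6 ± 0.909 CPM (log2FC = 0.15, FDR = 0.0764). Csf1r was called lower (log2FC = -1.51, SE 0.13, FDR = 1.31e-05). The other 2 markers tested, named after their values were seen, were Lyz2 with 11.9 ± 0.287 CPM against 17.1 ± 0.117 CPM (log2FC = -0.52, FDR = 2.73e-04) and Cd14 with 11.5 ± 0.414 CPM against 12.9 ± 0.74 CPM (log2FC = -0.16, FDR = 0.147).

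Of 11 fibroblast and endothelial markers 4 passed the filter and 0 were called, which is near the background of 4.39% higher and 0.844% lower for so few genes. Kdr had 0 counts in all 6 samples, the list summed to 58.6 to 60.5 CPM in oe-AQP1 and 53.3 to 67.3 CPM in oe-NC, and Pdgfrb, its most abundant gene, had a log2FC of 0.34 (SE 0.06, FDR = 0.00284). Col1a1, named after its value was seen, passed the FDR in the lower direction, with 12.5 ± 0.469 CPM against 21.1 ± 4.35 CPM (log2FC = -0.73, SE 0.14, FDR = 0.00238). The label of a renal epithelial line was met in part. Of 15 renal epithelial markers 11 passed the filter, among them Krt8 (299 ± 3.04 CPM in oe-AQP1 and 397 ± 22.5 CPM in oe-NC, log2FC = -0.41, FDR = 6.43e-05) and Pax8, named after its value was seen (164 ± 7.03 and 172 ± 7.08 CPM), while Epcam and Havcr1 had 0 counts in all 6 samples. By limma-voom on all samples none of the list was called (background 4.39% higher and 0.844% lower). With edgeR 1 was called (Krt19), and without oe-NC sample 3 limma-voom also called 1. In the lower direction 6 of the 11 tested passed the FDR (background 16.6%), with a median log2FC of -0.32. Its sum was 854 to 886 CPM in oe-AQP1 and 1040 to 1160 CPM in oe-NC. The part of this difference in the OAS result was not tested.

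Of 11 housekeeping genes 0 were called, near the background of 4.39% higher and 0.844% lower for so few genes. Actb, the uncalled gene with the highest mean CPM, had 1730 ± 15.5 CPM against 2190 ± 123 CPM (log2FC = -0.34, SE 0.04, FDR = 1.13e-04). The list had a median log2FC of -0.25 with 7 of 11 genes lower (background 16.6%) and 1 higher (background 16.0%) by FDR, the higher 1 being B2m (log2FC = 0.81, SE 0.04), a gene of the MHC class I complex. Apart from B2m, the shifts of the list were small beside those of the OAS genes, and most ran the other way.

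Genes around the OAS clusters were read to see whether the change reached the neighbourhood. Within 500 kb of a member lay 136 other genes of the table, of which 50 were tested, 2 were called higher (background 4.39%) and 1 was called lower (background 0.844%), with a median log2FC of -0.06. The nearest tested gene beyond each end of either cluster was not called. Beside Oasl1, 2210016L21Rik at 4243 bases had 31.4 CPM in oe-AQP1 and 32.6 in oe-NC (log2FC = -0.05, FDR = 0.676). Beside Oasl2, the lncRNA ENSMUSG00000135230 at 14562 bases had 1.46 CPM in either group (log2FC = -0.01, FDR = 0.971). Beside Oas2, Dtx1 at 17519 bases had 0.565 against 0.642 CPM (log2FC = -0.14, FDR = 0.78), and beyond Oas1a the first gene tested, Ptpn11 at 222147 bases, had 193 against 207 CPM (log2FC = -0.10, FDR = 0.0972).

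The 3 neighbours called were Gm13822, Trafd1 and Iqcd. Gm13822 (chr5:115055374-115061375, minus strand) is a lncRNA whose start overlaps that of Oasl1 on the opposite strand, and it had 223, 236 and 230 counts in oe-AQP1 and 14, 13 and 26 in oe-NC (log2FC = 3.64, SE 0.22, FDR = 6.72e-07). The library kit did not keep the strand, so reads of the overlapping bases of Gm13822 and Oasl1 cannot be told apart. Oasl1 had far more counts (9495 to 10488 in oe-AQP1), so its own value depends little on this. Trafd1, a negative regulator of innate signalling, lies 461391 bases from Oas1a and had 1250, 1417 and 1172 counts against 276, 235 and 285 (log2FC = 2.19, SE 0.08, FDR = 9.79e-09). Iqcd was called lower on few counts, above the filter's minimum in every sample of oe-NC only, with 10, 8 and 5 against 13, 18.84 and 20 (log2FC = -1.23, SE 0.35, FDR = 0.0229), and lost its call without any 1 of oe-AQP1 samples 2 and 3 and oe-NC samples 2 and 3. Without oe-NC sample 1, 5 neighbours were called.

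**Figure D5:**
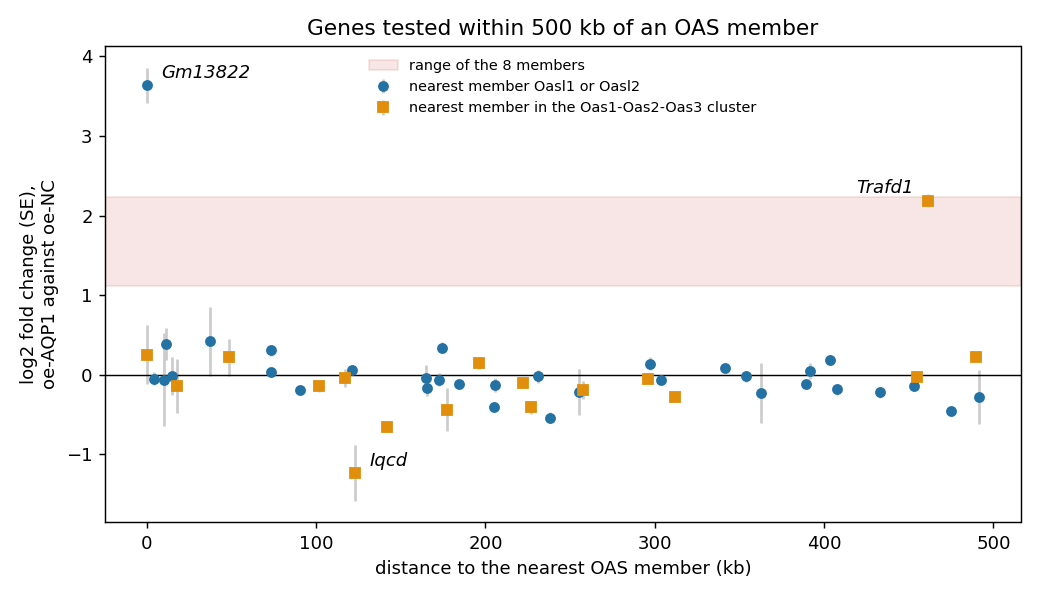
Log2 fold change with SE (vertical axis) of the 50 tested genes within 500 kb of an OAS member against their distance to the nearest member in kb, by cluster, with the range of the 8 members shaded. Gm13822 (3.64) and Trafd1 (2.19) were called higher, Iqcd (-1.23) lower, and the other points lie between -1 and 1.

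Of 9748 other genes with a mean of at least 10 CPM, those whose profile over the 6 samples was among the 5 nearest to the mean profile of the 8 OAS genes included Usp18, H2-T22, Irgm2 and 9930111J21Rik2. Likeness was the Euclidean distance between log2 CPM values centred per gene, which follows the size of the group difference and the scatter of samples and shares library depth among all genes. The distance was 0.0335 for Usp18, 0.0437 for H2-T22, 0.0668 for Irgm2 and 0.0697 for 9930111J21Rik2. Usp18, the protease that removes ISG15, had 459 ± 1.25 CPM against 137 ± 2.80 CPM (log2FC = 1.74, SE 0.03). H2-T22, a nonclassical MHC class I gene, had a log2FC of 1.71 (SE 0.04), and Irgm2, an immunity-related GTPase, of 1.75 (SE 0.04). The members themselves lay at distances from 0.0767 (Oas1g) to 0.778 (Oas2) from their own mean profile.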

How the data were processed

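Paired-end RNA sequencing of total RNA from RENCA cells gave 1 library for each of 3 oe-AQP1 and 3 oe-NC samples, all labelled as 1 batch. The authors deposited expected counts per gene, not scaled between samples, in 1 table with annotation for each gene. Its 2 columns of group means were not used. The submitters' processing notes name fastp, HISAT2, featureCounts and Subread and the build GRCm38 (mm10), whereas the study's methods give GRCm39. The gene identifiers were found in GENCODE M39 (GRCm39) for 78168 of 78298 genes, and positions and lengths are from there. Between 9.52% and 10.6% of all values per sample were not whole, as where shared reads are divided among genes, by a rule not given in the sources used here. The TruSeq RNA kit named in the labels does not mark strand.

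Expected counts were rounded and compared as the study's methods state, by limma-voom with TMM factors (0.9933 to 1.006), thresholds of 0.05 on the Benjamini-Hochberg adjusted p and of 1 on the absolute log2FC. The removal of interferon-stimulated and antiviral genes that those methods add was not applied, since it would take out the members. Genes were kept by edgeR's filterByExpr (15522 genes). limma 3.58.1, edgeR 4.0.16 and DESeq2 1.42.0 were run in R 4.3.3, and exact permutation tests in Python 3.11.15. Coding sequences were aligned with Biopython 1.88. Tested on simulated counts with 200 of 15281 genes changed 4-fold, limma-voom recovered 99.5% with 2 false calls. The changed genes were picked among well-counted genes, and no simulated sample was made to stand apart. The simulation therefore does not cover changes near the fold threshold or a sample such as oe-NC sample 1.

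The members and lists were chosen with earlier results of these data known. Named were all 8 members, Aqp1, the other OAS genes and the 2-5A pathway, of each other list the called genes with the 2 largest and 2 smallest log2FC and the most abundant uncalled gene, of the neighbours those called and the nearest tested on each side, and the 5 nearest profiles. Genes that are not reported here were left out of the lists and of the names. Alternatives were other tests, scalings, filters, thresholds, unrounded counts, protein-coding genes alone, a replicate block and leaving out each sample. With 18385714 to 21396274 counts in the oe-NC samples and 19758518 to 21920899 in the oe-AQP1 samples, 20 counts are near 1 CPM. No protein sequences were used here.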

Additional observations from a re-analysis of the deposited data

How the results depend on the processing

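All 8 OAS genes were called higher under 18 of 19 alternatives, and each gene kept its direction in all 19. The exception was the limma treat test against a log2FC of 1, which called 7, with Oas2 at a log2FC of 1.11 and an adjusted p of 0.276. Leaving out each sample in turn left 8 called, with 765 to 891 genes called in all and 661 to 729 higher. The log2FC ranged from 1.09 to 1.13 for Oas2 and from 2.17 to 2.30 for Oasl1 over the alternatives. Same-numbered samples did not deviate together (r of deviations -0.0677 to 0.00911 over 15522 genes), and no sample correlated best with its own number, so the numbers were not taken as pairs. With the replicate block, 8 members and 786 genes (666 higher) were called, and no member changed its call. The median log2FC of all genes stayed between 0.000 and 0.015 under the other scalings.

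The number of genes called, 812 in the main test (681 higher), was 334 (316 higher) with treat, 482 (416 higher) with at least 10 counts in every sample, 515 (422 higher) over protein-coding genes and 5050 (2481 higher) without the fold threshold. Without the fold threshold, 1 of the other OAS genes, 1 of the 2-5A pathway, 1 of the cGAS and STING pair, 11 from interferon receptor to OAS transcription, 2 leukocyte, 2 fibroblast and endothelial and 6 renal epithelial markers, 8 housekeeping genes and 14 neighbours passed. With treat, 0 leukocyte markers were called. Without a low-count filter, Cgas was called (1 of the pair) and 6 neighbours were called, and with at least 10 counts in every sample 0 interferon genes were. With edgeR's test 1 renal epithelial marker (Krt19) was called. Leaving out 1 sample, the calls ran from 0 to 1 for the other OAS genes, for the cGAS and STING pair and for the renal epithelial markers, and from 2 to 5 for the neighbours.

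At this depth, the calls of Oas1h and Iqcd, with at most 20 counts per sample, depended on single samples. The split of reads between Oas1a and Oas1g, and between Ifit3 and Ifit3b, rests on a division of shared reads. With 3 samples per group no exact permutation test can go below p = 0.1.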
